A study of Mus musculus with 6 samples.

Results

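The genes described here are 10 components of semaphorin signalling in the embryonic mouse heart: the class 3 semaphorin ligands Sema3a, Sema3b, Sema3c, Sema3d and Sema3f, their co-receptors Nrp1 and Nrp2, and the plexin receptors Plxna2, Plxna4 and Plxnd1. They were taken by gene name, and each matched 1 row of a table of 45706 genes. Poly(A) RNA of 6 heart samples was sequenced from stranded, paired-end libraries. The 3 control samples, from littermates, had the genotype RBPMS flox/flox RBPMS2 flox/flox, in which both genes are flanked by loxP sites. The 3 double knockout samples had the same floxed alleles and were aMyHC Cre pos: their Cre recombinase is under control of the alpha-myosin heavy chain promoter, a promoter of heart muscle cells. All were C57BL6/J, and all that the samples share, the floxed alleles included, is outside the comparison. The comparison covers the Cre transgene together with the deletion, since no control is labelled with Cre. The embryonic day, the sex and whether a sample is 1 heart or a pool were not stated, so p-values measure the spread between these samples.

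Class 3 semaphorins are secreted guidance proteins. Neuropilins bind them at the cell surface and plexins carry the signal into the cell, where it commonly weakens adhesion and collapses the leading edge of axons and migrating cells. In the developing heart the family is known for the septation of the outflow tract, the migration of cardiac neural crest cells, the patterning of coronary and pulmonary veins and the distribution of sympathetic nerves. Neuropilins also bind vascular endothelial growth factors. RBPMS and RBPMS2 are RNA-binding proteins that regulate splicing in muscle cells.

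Values are the deposited reads per gene, scaled sample by sample and given as whole numbers. Their totals were 17861435 to 18439201 per sample, and the spacing of low values gave an estimated depth of 12957977 to 25837261 reads before scaling. Control replicate 3 was the shallowest and knockout replicate 1 the deepest. Rbpms had 3868 to 7656 in the controls and 852 to 1134 in the knockouts, and Rbpms2 had 1362 to 1998 and 879 to 1003, so neither overlapped between groups. All 14 cardiomyocyte markers were detected, with a summed value of 863825 to 920291 in the controls and 804010 to 869988 in the knockouts. In limma, a linear model with moderated variances on log2(value + 1), 2670 of 15556 genes tested passed a Benjamini-Hochberg adjusted p of 0.05, or 17.2%. Of all genes tested 8.61% were higher and 8.56% lower, and the groups did not overlap in 35.4%.

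The ligands Sema3a, Sema3b and Sema3d rose in the knockouts, whereas among the receptors Nrp2 passed the test as lower, close to the threshold, and the plexins did not pass. All 10 genes passed the filter on low values, with a mean of at least 250. Of the 10, 3 were called higher (background 8.61%), 1 lower (background 8.56%) and 6 neither. For 5 genes, namely Sema3a, Sema3b, Sema3d, Nrp1 and Nrp2, control and knockout values did not overlap (background 35.4%). The median log2 fold change of the 10 genes was 0.17, against 0.002 over all genes tested. In whole-heart RNA a change in the number of cells of a type and a change in RNA per cell cannot be told apart.

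**Figure D1:**
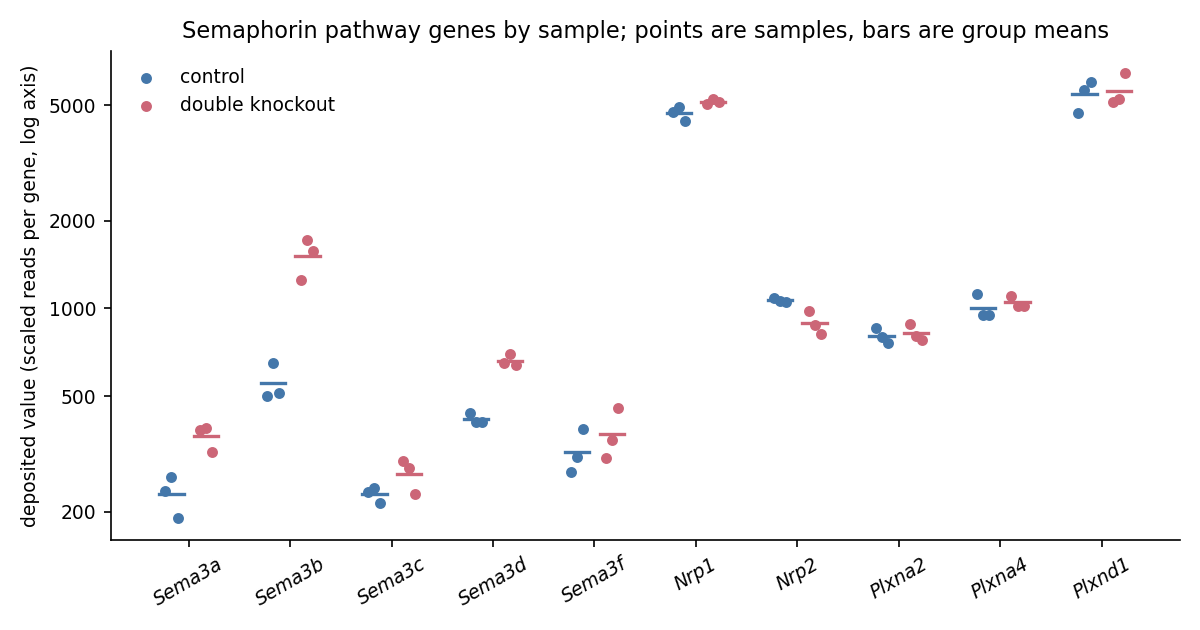
Deposited value (scaled reads per gene, log axis) of the 10 genes in each sample; blue points are the 3 controls, red points the 3 double knockouts, and bars the group means. Sema3b is at 501 to 650 in the controls and 1252 to 1714 in the knockouts, while Plxna2, Plxna4 and Plxnd1 overlap.

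Sema3b had the largest change of the 10. It encodes a secreted semaphorin that signals through neuropilins and is known as a candidate tumour suppressor. The gene (ENSMUSG00000057969) lies on the minus strand of chromosome 9 at 107597674 to 107609229 (mm10). Its value was 501, 650 and 511 in the controls, in the order of replicates 1 to 3, against 1252, 1714 and 1571 in the knockouts. Every knockout sample thus lay above every control. The mean was 554 ± 83.3 in the controls against 1512 ± 237 in the knockouts (SD, n = 3 per group). The log2 fold change was 1.45 (SE 0.13, 95% confidence interval 1.15 to 1.74, limma adjusted p = 0.000329) or 2.72-fold.

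Sema3a, the founding chemorepellent of the class, guides sympathetic axons in the heart. It lies on the plus strand of chromosome 5 at 13125414 to 13602565 (ENSMUSG00000028883). The controls had 235, 264 and 191 and the knockouts 381, 388 and 322, without overlap. Means were 230 ± 36.8 and 364 ± 36.3 (SD, n = 3 per group). The log2 fold change was 0.67 (SE 0.13, 95% confidence interval 0.37 to 0.97, limma adjusted p = 0.00865). Control replicate 3, the shallowest library, had the lowest value, and without it the rise was 0.54 (limma adjusted p = 0.0294).

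Sema3d, a semaphorin of the epicardium and neighbouring mesenchyme that is known for its part in venous patterning, rose by nearly the same amount with less spread. The gene (ENSMUSG00000040254) is also on chromosome 5, plus strand, 12383385 to 12588948, and ends 536.5 kb before Sema3a begins. The controls had 438, 407 and 407 and the knockouts 651, 695 and 640, with means of 417 ± 17.9 and 662 ± 29.1 (SD, n = 3 per group). Every knockout lay above every control. The coefficient of variation was 4.3% among controls and 4.4% among knockouts, the lowest of the ligands in each group. The log2 fold change was 0.66 (SE 0.08, 95% confidence interval 0.49 to 0.84, limma adjusted p = 0.000941).

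Sema3c and Sema3f did not pass. Sema3c, a ligand for neural crest cells of the outflow tract, lies on the same chromosome (plus strand, 17574281 to 17730268; ENSMUSG00000028780). Its values were 234, 241 and 215 in the controls against 299, 283 and 230 in the knockouts, and knockout replicate 3 lay among the controls. The log2 fold change was 0.23 (95% confidence interval -0.04 to 0.50, limma adjusted p = 0.234). Sema3f, a ligand of NRP2, lies on chromosome 9, minus strand, 107681500 to 107710475 (ENSMUSG00000034684). It had 273, 309 and 384 in the controls against 306, 353 and 455 in the knockouts. Its log2 fold change was 0.20 (95% confidence interval -0.16 to 0.56, limma adjusted p = 0.439). Its coefficient of variation, 17.6% in controls and 20.5% in knockouts, was the highest of the 10 genes in each group.

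The RefSeq promoter windows (GRCm38.p6; 250 bases before to 50 after a gene's start) of the chromosome 5 ligands are shown because they differ in base composition. A window was found for 7 of the 10 genes, and Sema3b, Sema3f and Plxna4 had none. Capitals mark CG dinucleotides, and each is written 5′ to 3′ on the plus strand.
Sema3a, chr5:13396534-13396833: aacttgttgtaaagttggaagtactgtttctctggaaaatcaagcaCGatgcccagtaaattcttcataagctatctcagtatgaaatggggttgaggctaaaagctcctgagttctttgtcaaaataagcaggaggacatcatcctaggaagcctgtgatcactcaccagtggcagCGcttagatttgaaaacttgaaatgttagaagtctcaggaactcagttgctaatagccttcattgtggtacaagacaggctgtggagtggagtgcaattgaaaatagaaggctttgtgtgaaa
Sema3d, chr5:12382916-12383215: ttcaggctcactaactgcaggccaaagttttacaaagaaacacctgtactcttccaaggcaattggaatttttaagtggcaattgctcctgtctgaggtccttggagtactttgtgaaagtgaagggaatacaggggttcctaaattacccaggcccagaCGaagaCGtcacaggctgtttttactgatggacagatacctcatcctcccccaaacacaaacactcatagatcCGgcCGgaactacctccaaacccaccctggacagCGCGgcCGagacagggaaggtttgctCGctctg
Sema3c, chr5:17574566-17574865: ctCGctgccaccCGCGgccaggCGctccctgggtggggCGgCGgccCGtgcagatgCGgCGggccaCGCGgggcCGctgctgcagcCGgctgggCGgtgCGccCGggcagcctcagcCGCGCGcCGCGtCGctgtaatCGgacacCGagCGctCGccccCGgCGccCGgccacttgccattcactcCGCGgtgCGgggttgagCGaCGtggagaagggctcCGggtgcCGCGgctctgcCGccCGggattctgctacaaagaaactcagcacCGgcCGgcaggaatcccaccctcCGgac
The Sema3a window held 2 CG dinucleotides and 41.3% G + C, and the Sema3d window 8 and 49.7%. The Sema3c window held 42 and 75.7%. Over 32851 promoter windows the medians were 7 and 52.7%. The windows of Nrp1, Nrp2, Plxna2 and Plxnd1 held 14 to 37 CG dinucleotides and 64.0% to 70.7% G + C. Sema3a and Sema3d thus had the lowest G + C of the 7 windows, which is a description of 7 sequences that do not include Sema3b. The windows of Sema3a, Sema3c, Nrp1 and Plxna2 are inside their GENCODE genes, whose annotated spans begin upstream. That of Sema3a is the farthest inside, since the span of its gene begins at 13125414. On either strand the GATA motif AGATAA (11.18% of all windows), the TEAD motif GGAATG (14.66%) and the CArG box (1.63%) were searched, and the only match in the 7 windows was 1 TEAD motif, in that of Plxnd1.

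RBPMS proteins are known to bind RNA at paired CAC trinucleotides, so the coding sequences were searched for a CAC followed by another after 1 to 12 bases, on the sense strand. Of the 30-base coding stretches that begin with CAC, the one with most CACs (in capitals; with equal numbers, the first) is shown for the 4 genes that passed the test, and for Nrp1 as the other neuropilin.
Sema3b, coding bases 361 to 390: CACACctacaacCACACcCACttgctggcc
Sema3a, coding bases 611 to 640: CACtggggCACcatCACcccatcaggacgg
Sema3d, coding bases 2000 to 2029: CACaggagCACACtttcatcCACACcatag
Nrp2, coding bases 509 to 538: CACACaatctggactgtaccttCACcatcc
Nrp1, coding bases 1415 to 1444: CACtgcCACcctCACccCACccataCACca
Paired CACs occurred at 3.56 per kb of coding sequence in Sema3b, 3.02 in Sema3a and 3.22 in Nrp2, against a median of 2.74 over 13483 genes. Sema3d had 7 pairs in 2331 coding bases. Among the genes that did not pass, the density was 5.54 in Plxnd1, 5.06 in Nrp1, 4.4 in Plxna2, 4.25 in Sema3f, 3.35 in Plxna4 and 1.78 in Sema3c. In the 3′ untranslated region Nrp2 had 24 pairs, or 7.85 per kb, above 93.9% of 10875 genes, and part of them form a CA repeat. The first 300 bases of that region held 0. Sema3b had 0 pairs there in 418 bases, where the first 300 bases of 51.4% of genes hold at least 1. Binding was not measured here.

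Of the neuropilins, Nrp2 passed the test and Nrp1 did not. Nrp1, which binds SEMA3A and VEGF and is abundant in endothelium, lies on chromosome 8, plus strand, 128358604 to 128503363 (ENSMUSG00000025810). It had 4741, 4920 and 4404 in the controls against 5029, 5251 and 5133 in the knockouts. Means were 4688 ± 262 and 5138 ± 111 (SD, n = 3 per group). The groups did not overlap, but the log2 fold change of 0.13 did not pass (95% confidence interval -0.01 to 0.28, limma adjusted p = 0.183). Values are per gene, so the membrane-bound and soluble forms of a neuropilin are counted together.

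Nrp2, the co-receptor preferred by SEMA3F and VEGF-C and known from veins and lymphatic vessels, lies on chromosome 1, plus strand, 62703285 to 62818695 (ENSMUSG00000025969). It had 1089, 1065 and 1051 in the controls against 977, 880 and 820 in the knockouts, so that all 3 knockouts lay below the controls. Means were 1068 ± 19.2 and 892 ± 79.2 (SD, n = 3 per group). On the log2 scale Nrp2 fell by 0.26 (SE 0.08; 95% confidence interval -0.44 to -0.09, limma adjusted p = 0.0462). The call was lost in 9 of 14 alternatives, with adjusted p from 0.0208 to 0.149 over all of them, and the fall was 0.20 to 0.33 throughout. It was lost without control replicate 1 (limma adjusted p = 0.0898), control replicate 2 (0.112), control replicate 3 (0.0949), knockout replicate 2 (0.149) and knockout replicate 3 (0.143).

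None of the 3 plexins passed in limma, and the unadjusted p was 0.469 or higher for each; limma-voom also called 0. Plxnd1, an endothelial receptor needed for the outflow tract and vessel patterning, had 4708, 5655 and 5993 in the controls against 5108, 5245 and 6449 in the knockouts (chromosome 6, minus strand, 115954811 to 115995005; ENSMUSG00000030123). The log2 fold change was 0.04, with a 95% confidence interval of -0.21 to 0.28. Plxna4, a receptor of sensory and sympathetic axons, had 1120, 951 and 946 against 1105, 1018 and 1022 (chromosome 6, minus strand, 32144268 to 32588192; ENSMUSG00000029765), a log2 fold change of 0.06 (95% confidence interval -0.12 to 0.25). Plxna2, a receptor of cardiac neural crest cells, had 855, 796 and 763 against 882, 807 and 781 (chromosome 1, plus strand, 194618218 to 194816869; ENSMUSG00000026640), a log2 fold change of 0.03 (95% confidence interval -0.15 to 0.21). The groups overlapped in all 3 genes, and the sign of the change in Plxna2 and Plxnd1 was not the same in every alternative.

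Levels were compared between genes per kilobase of annotated exons (the union of each gene's exons in GENCODE M21), as the mean over the 6 samples with the range. Plxnd1 was highest at 757 (645 to 883), followed by Nrp1 at 502 (450 to 537) and Sema3b at 216 (105 to 359). Nrp2 at 82.8 (69.2 to 92.0), Plxna4 at 72.8 (67.1 to 79.4), Sema3f at 66.7 (52.5 to 87.6) and Sema3d at 62.8 (47.4 to 80.9) overlapped one another. Plxna2 was at 47.4 (44.4 to 51.4), Sema3c at 35.1 (30.1 to 41.9) and Sema3a lowest at 21.4 (13.8 to 28.0), and the ranges of these last 3 did not overlap. The order also differs between the groups. Sema3d was at 48.6 ± 2.08 in the controls, next to Plxna2 at 46.9 ± 2.71. In the knockouts it was at 77.0 ± 3.39 (SD, n = 3 per group), beside Nrp2 at 75.4, Plxna4 at 74.3 and Sema3f at 71.5. The order depends on the length used as well. Per kilobase of the transcript with the longest coding sequence, Nrp1 (1366) stood above Plxnd1 (800) and Sema3a (50.1) above Sema3c (45.6). On the exon-union scale the 5 ligands summed to 275 ± 19.0 in the controls and 529 ± 56.5 in the knockouts (SD, n = 3 each). Without Sema3b the sum was 159 ± 5.96 and 213 ± 7.49. Sema3b made up 42.0% ± 3.55 of the sum of these 5 ligands in the controls and 59.6% ± 3.11 in the knockouts (SD, n = 3 each). That sum leaves out Sema3g, another class 3 gene, at 80.2 per kilobase in the controls and 83.8 in the knockouts.

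The other semaphorins and plexins were measured in the same fit. Of 15 other semaphorin genes 14 were tested, 1 was higher and 0 were lower, with a median log2 fold change of 0.08. The share called higher was near the 8.61% of all genes tested. The 1 was Sema4d, a transmembrane ligand of plexin B1, which went from 422, 529 and 462 to 628, 729 and 774, by 0.59 (SE 0.11, limma adjusted p = 0.0058). Of the remaining class 3 genes, Sema3g, an endothelial semaphorin, had 346, 372 and 374 against 362, 396 and 383, and Sema3e, the neuropilin-independent ligand of PLXND1, was low at 4 to 16 in every sample. All 6 other plexins were tested, and 2 were higher (background 8.61%) and 1 lower (background 8.56%). Plxna3, a receptor for SEMA3F, rose by 0.52 (SE 0.09, limma adjusted p = 0.0046), from 407, 419 and 381 to 527, 585 and 626. Plxnc1, the receptor of SEMA7A, rose by 0.53 (SE 0.11, limma adjusted p = 0.00951). Plxnb1, the receptor of SEMA4D, fell by 0.40 (SE 0.09, limma adjusted p = 0.0113), from 2406, 2754 and 2782 to 2029, 1813 and 2175. Without knockout replicate 2 it fell by 0.33 (limma adjusted p = 0.0574). Ligand and receptor of this pair thus moved in opposite directions.

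**Figure D2:**
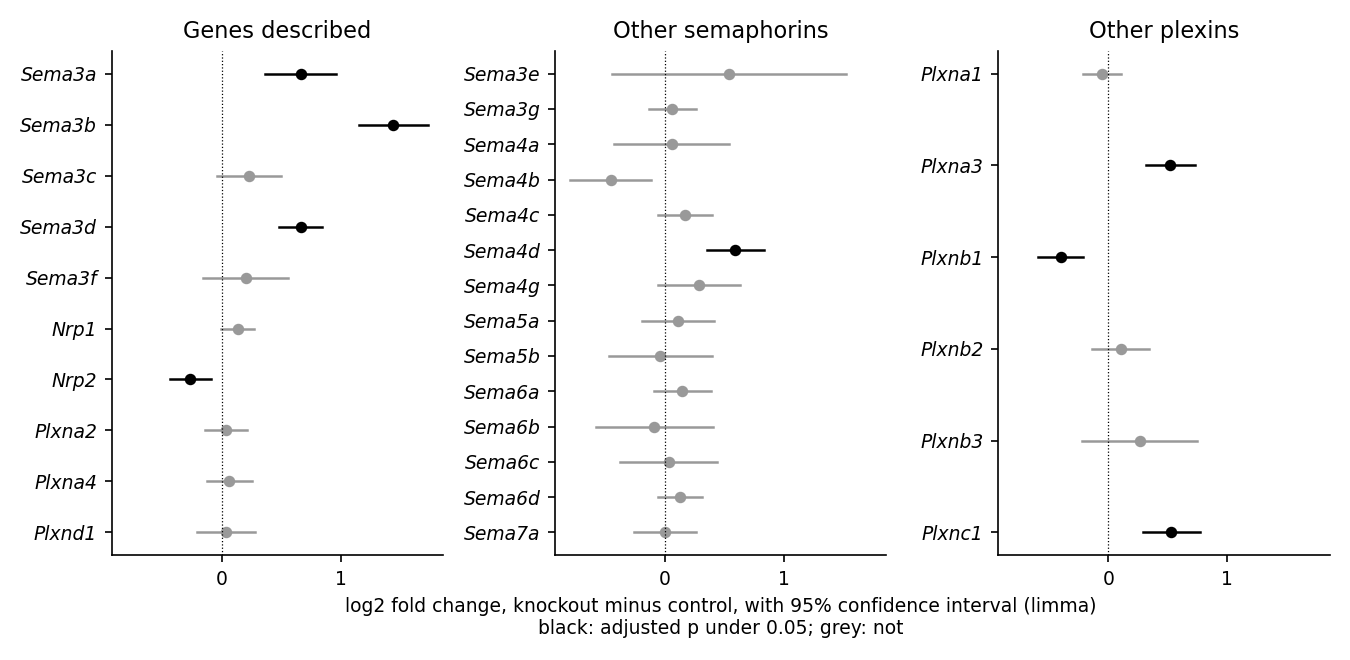
Log2 fold change (knockout minus control) with its 95% confidence interval from limma for the 10 genes, 14 other semaphorins and 6 other plexins; black marks an adjusted p under 0.05 and grey the rest. Sema3b is farthest from 0 at 1.45, and most other semaphorins lie near 0.

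Co-receptors, processing enzymes and effectors of the pathway were given by lists. Of 17 co-receptors and partners, including the VEGF ligands and receptors, 14 were tested and 0 passed in limma or in limma-voom; 6 had an unadjusted p under 0.05, all higher. The smallest p-values were those of Ptk7, a receptor-like partner of plexins, with 1303, 1456 and 1604 against 1590, 1875 and 2115 (limma adjusted p = 0.0539), and Cd72, a receptor of SEMA4D on B cells, with 18, 23 and 20 against 26, 61 and 38 (limma adjusted p = 0.0642). Of 5 proteases that can cleave such ligands 2 were higher in limma (background 8.61%), and limma-voom called 1. Adamts1, which is known to release SEMA3C from the matrix, rose by 0.34 (SE 0.08, limma adjusted p = 0.0169), and Pcsk6, a proprotein convertase, by 0.53 (SE 0.15, limma adjusted p = 0.0395). Furin, the convertase best known for cleaving class 3 semaphorins, had 1946, 2268 and 2621 against 2058, 2462 and 2876 (limma adjusted p = 0.607). The call of Adamts1 was lost without control replicate 3, knockout replicate 2 or knockout replicate 3 (limma adjusted p = 0.058, 0.0549 and 0.0583). That of Pcsk6 was lost without each sample but knockout replicate 1, with limma adjusted p = 0.0615 to 0.154. The Pcsk6 call was also lost with no filter (limma adjusted p = 0.0909) and in limma-voom (limma-voom adjusted p = 0.0711).

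Of 32 cytoplasmic effectors 2 were higher and 0 lower, with a median log2 fold change of 0.05. That share is no larger than the 8.61% of all genes tested that were higher. In limma 7 had an unadjusted p under 0.05, all of them higher. Dpysl3, of the collapsin response mediator family that acts on the cytoskeleton downstream of SEMA3A, rose by 0.38 (SE 0.08, limma adjusted p = 0.0128), from 12978, 14384 and 11481 to 17141, 16298 and 17074. Fes, a tyrosine kinase that associates with plexin A receptors, rose by 0.40 (SE 0.11, limma adjusted p = 0.0311). Without control replicate 1, control replicate 2, knockout replicate 2 or knockout replicate 3 the call of Fes was lost (limma adjusted p = 0.0775, 0.0894, 0.126 and 0.0977). With no filter it was lost as well (limma adjusted p = 0.0654).

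Part of the markers of other cell types passed the test, beside 8.61% of all genes tested that were higher and 8.56% that were lower. Of 15 endothelial and endocardial markers 6 were higher and 0 lower, and the list summed to 25337 to 28092 in the controls and 30048 to 35089 in the knockouts. Emcn, Npr3 and Tek, genes of endothelial or endocardial cells, rose by 0.91 (SE 0.06), 0.95 (SE 0.08) and 0.43 (SE 0.08), while Cdh5, the endothelial cadherin, had 5269, 5577 and 5805 against 5136, 5301 and 6286. Of 12 epicardial markers 4 were higher and 0 lower, with a median log2 fold change of 0.34 and sums of 4744 to 5179 and 5783 to 6556. Krt8, an epithelial keratin, rose by 1.38 (SE 0.19) and Bnc1 by 1.02 (SE 0.16), while Wt1 had 431, 416 and 508 against 451, 535 and 539. Of 11 fibroblast and mesenchyme markers 5 were higher and 0 lower, with sums of 96438 to 110590 and 127438 to 157749, led by Vcan at 0.94 (SE 0.09). Tcf21, called higher, is in both this list and the epicardial list and is counted in each. Macrophage markers were higher in 7 of 10 cases, with sums of 1800 to 1999 and 2576 to 3614. Of 10 pericyte and smooth muscle markers 1 was higher (Mcam) and 1 lower (Myh11), with sums of 20162 to 21771 and 24048 to 26125. Mcam, which weighs most in the sums, had 6636, 7512 and 6785 against 8587, 8717 and 9151. Myh11 had 153, 106 and 141 against 80, 40 and 31 (log2 fold change -1.487, limma adjusted p = 0.00949). Of 14 cardiomyocyte markers 1 was higher (Pln) and 2 lower (Actn2 and Ldb3). All 3 of these calls were lost without control replicate 2 (limma adjusted p = 0.098, 0.0836 and 0.115), control replicate 3 (0.103, 0.0693 and 0.0561) or knockout replicate 2 (0.12, 0.0641 and 0.125). The median log2 fold change was 0.21 for the endothelial list, 0.26 for fibroblasts, 0.90 for macrophages, 0.23 for pericytes and smooth muscle and -0.16 for cardiomyocytes.

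Neural crest, glial and neuronal markers were low. Of 18, 10 reached the filter and 0 passed in limma or limma-voom, although 3 had an unadjusted p under 0.05, all 3 of them lower. The list's median log2 fold change was -0.07. Their sums were 919 to 1010 in the controls and 880 to 1005 in the knockouts. Th and Tfap2b, defining genes of the list, were at 3 or less in every sample. Of 5 lymphatic markers 1 was higher, Lyve1, which macrophages also express, by 0.67 (SE 0.13), and sums were 2613 to 3084 and 2790 to 2920. Of 9 red blood cell markers 0 passed in limma or limma-voom, although 6 had an unadjusted p under 0.05, of which 1 was higher. Their median log2 fold change was -0.48, with sums of 38040 to 66307 in controls and 30761 to 37941 in knockouts. The upper end of the control sums is that of control replicate 3. Hbb-bs, for instance, had 18235, 19253 and 31898 in the controls against 17643, 15784 and 18630 in the knockouts. The globin genes Hbb-y and Hba-x, 2 of the 9, had positive log2 fold changes. The part of these marker differences in the changes of the semaphorin and receptor genes was not tested.

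Ratios within a sample do not depend on the scaling factor of that sample. Of 11 ratios computed, each as a log2 difference compared by a 2-sided exact permutation test, none can go below p = 0.1 with 3 against 3, and those without overlap between groups had p = 0.1 (Benjamini-Hochberg 0.14). Relative to the mean of the endothelial markers, Nrp1 was at 1.88 ± 0.13 in the controls and 1.76 ± 0.09 in the knockouts and overlapped (exact permutation p = 0.3). Plxnd1 was at 2.09 ± 0.12 and 1.87 ± 0.10 and overlapped (exact permutation p = 0.2). Nrp2 relative to the same markers was at -0.25 ± 0.09 and -0.77 ± 0.22, without overlap (SD, n = 3 each, exact permutation p = 0.1). The difference in Nrp2 was therefore larger relative to endothelial markers, -0.52, than on the deposited scale, -0.26. Of the 15 endothelial markers 11 had a positive log2 fold change, and the list ran from -0.12 to 0.95. The size of the Nrp2 difference thus depends on the markers averaged.

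The ratio of Nrp2 to Nrp1 was -2.12, -2.21 and -2.07 in the controls against -2.36, -2.58 and -2.64 in the knockouts, without overlap. Sema3d relative to the epicardial markers was at 0.72 ± 0.12 and 0.92 ± 0.12 and overlapped (SD, n = 3 each, exact permutation p = 0.2), a difference of 0.20 against 0.66 on the deposited scale. The log2 fold changes of the 12 epicardial markers ran from 0.02 to 1.38 with a median of 0.34. The size of the Sema3d difference therefore depends on the markers averaged. Sema3a was higher in the knockouts relative to cardiomyocyte markers by 0.78, to neural markers by 0.77 and to Nrp1 by 0.53, each without overlap. The neural mean covers the 10 low markers that reached the filter, whose log2 fold changes ran from -1.035 to 1.253. Here too the size of the difference depends on the markers averaged. Sema3b relative to Sema3f was at 0.87, 1.07 and 0.41 in the controls against 2.03, 2.28 and 1.79 in the knockouts. Sema3c relative to Sema3d was lower in the knockouts by 0.44, and relative to cardiomyocyte markers higher by 0.34, both without overlap.

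**Figure D3:**
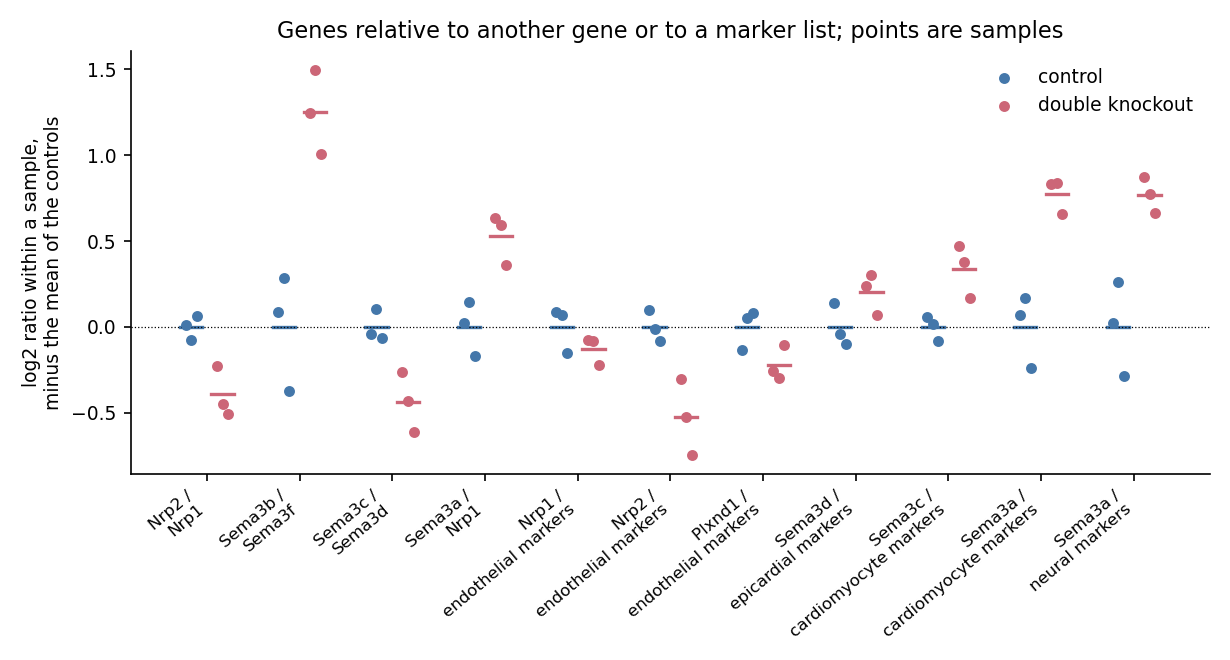
Log2 ratio of a gene to another gene or to the mean of a marker list within each sample, shown minus the mean of the controls; blue points are controls, red points double knockouts and bars group means. The ratios of Nrp1 and Plxnd1 to endothelial markers and of Sema3d to epicardial markers overlap between groups, and the other 8 do not.

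Sema3b and Sema3f lie 72.3 kb apart, and the genes around them were compared as neighbours. In a window from 100 kb before Sema3b to 100 kb after Sema3f, 17 protein-coding genes were annotated, 16 were tested, 4 were higher and 0 lower, Sema3b included, for which the window was chosen (background 8.61% higher). Besides Sema3b these were the hyaluronidase genes Hyal1 and Hyal2 and the acetyltransferase gene Nat6, which lie 13.6 to 24.9 kb from Sema3b on the opposite strand and were singled out after their values were seen. Hyal1 had 107, 97 and 94 in the controls against 157, 156 and 172 in the knockouts, a log2 difference of 0.70 (SE 0.13, limma adjusted p = 0.00521). Hyal2, which degrades hyaluronan at the cell surface, had 924, 1313 and 1244 against 1677, 1613 and 1933, a log2 difference of 0.60 (SE 0.13, limma adjusted p = 0.0108). Nat6 rose by 0.50 (SE 0.12, limma adjusted p = 0.0219), and its call was lost without control replicate 1, knockout replicate 2 or knockout replicate 3 (limma adjusted p = 0.0561, 0.0508 and 0.0706). It overlaps Hyal1 and Hyal3, so reads of these genes may be shared. Ifrd2 and Gnai2, the nearest genes on either side of Sema3b at 4.3 and 4.9 kb, had log2 fold changes of -0.11 (SE 0.09) and -0.14 (SE 0.10) and did not pass.

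**Figure D4:**
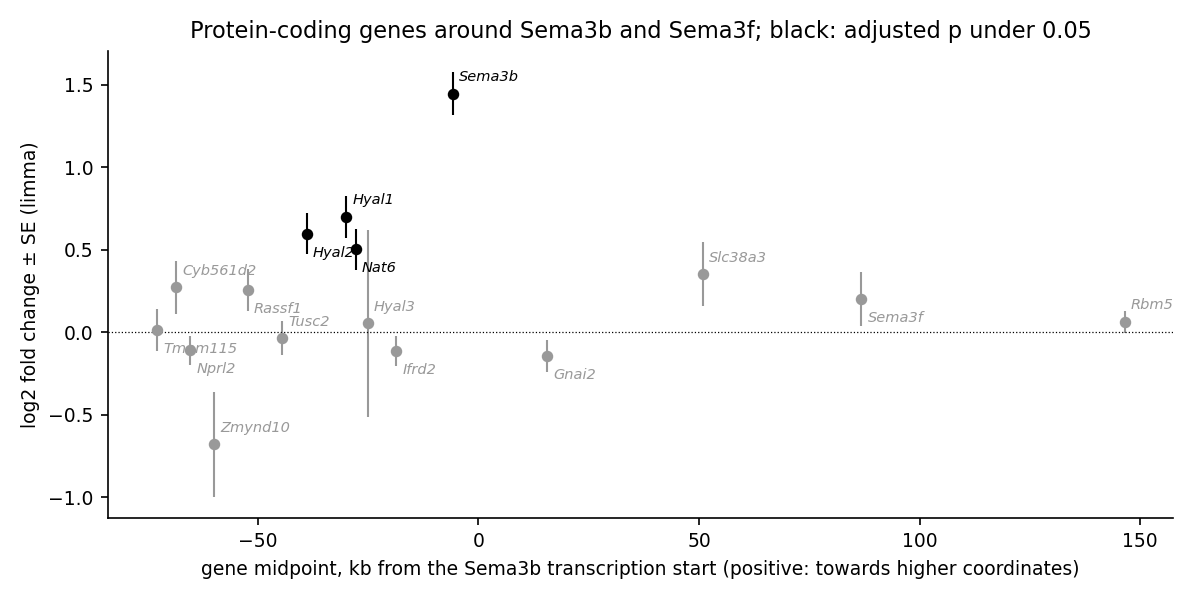
Log2 fold change (limma, bars are SE) of 16 protein-coding genes against the distance in kb of each gene's midpoint from the start of Sema3b; black marks an adjusted p under 0.05. Sema3b, Hyal1, Hyal2 and Nat6 are black, and Sema3f lies at 0.20 in grey.

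Reads in exons shared with other genes could not be counted from these values. Exons overlapped those of another gene only in Nrp1, with a microRNA gene at 0 in every sample, and in Plxna4, with an antisense gene at 0 to 1. The strand setting of the counting was not stated.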

How the data were processed

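Poly(A) RNA of 3 control and 3 double knockout heart samples was measured by stranded RNA sequencing, per the labels. Groups and replicate numbers came from the sample titles. The tools named per the submitters' processing notes were STAR 2.4.2a, featureCounts 1.5.0, Trimmomatic, DESeq and DESeq2, with build mm10; their roles are not given in the sources used here. The deposited values are a score, read from the values themselves: scaled reads per gene, rounded by the authors to whole numbers after multiplication by a sample-specific number. Fitting the spacing of values up to 150 gave that number and the estimated depth. Where it is below 1, different read numbers share a value, so exact reads were not recovered. The main test was therefore not a count test, and limma-voom on the estimated reads was an alternative.

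Groups were compared on log2(value + 1) with limma 3.58.1 (R 4.3.3, variance trend). The fit held 15556 genes whose mean was at least 10, with Benjamini-Hochberg adjustment over all of them. A fold change on this scale understates the change of low genes. The script was also run on simulated reads with the same spread setting for every gene, so that run does not bear on the calls here. The ratio tests were exact permutation tests in Python 3.11.15. GENCODE M21 (mm10) gave positions for 45143 of 45706 identifiers, and RefSeq (GRCm38.p6) the promoter windows. Pairs of replicates of 1 group all differed by more than sampling noise.

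The genes and lists were chosen with earlier results of these data known. All 10 genes are named, together with up to 4 called genes of each pathway list (or the 2 with the smallest p, as values), up to 3 per marker list and the 2 genes most like each called gene. Further genes named as values, such as Furin, Sema3e, Sema3g, Cdh5 and Wt1, were chosen after their values were seen. Alternatives were pseudocounts of 0.1 and 10, limma-voom on estimated reads, no filter, a filter of at least 50 in 3 samples, equal totals, quantile normalization, the replicate number as a block, and leaving out each sample.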

Additional observations from a re-analysis of the deposited data

How the results depend on the processing

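The rises of Sema3a, Sema3b and Sema3d passed the threshold in all 14 alternative fits, with log2 fold changes of 0.54 to 0.77, 1.35 to 1.58 and 0.63 to 0.70, so that 3 of the 10 genes were higher throughout. The number lower was 0 with no filter, equal totals, quantile normalization and limma-voom, and 0 to 1 without each sample in turn. Over all genes, 1755 were called with no filter (846 higher). Without each sample in turn 1305 to 2370 were called, 614 to 1237 of them higher and 691 to 1225 lower. The replicate numbers share only a number: the deviations of same-numbered samples correlated at -0.04, -0.37 and 0.05, and 0 of 6 samples correlated best with their own number. With the replicate number as a block 3530 genes were called, Nrp2 passed (limma adjusted p = 0.0208), and the counts of the 10 genes did not change. All 88 alternative values of the within-sample ratios, from other pseudocounts or without 1 sample, moved by less than 1 SD, pooled over both groups. With 3 samples a group, leaving out 1 cannot move a difference of means that far, so those values say nothing about robustness. With 3 samples a group the 95% confidence intervals of the 6 genes that did not pass reached at most 0.56 on the log2 scale.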

Other observations

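Genes whose log2 values followed a called gene most closely over the 6 samples are given as a description, since 6 points that fall into 2 groups correlate highly for many genes. For Sema3b they were Bcl2l2, an antiapoptotic gene, and Galm, a galactose mutarotase gene (Pearson r = 0.998 each). Bcl2l2 went from 891, 960 and 908 to 1208, 1378 and 1313. For Sema3d they were Itpr2, a calcium release channel of the endoplasmic reticulum, and Pygo1, a WNT pathway coactivator (r = 0.998 each), and Itpr2 went from 727, 670 and 657 to 1207, 1254 and 1194. For Sema3a they were Akap11, an anchoring protein of protein kinase A, and Itih3, a low gene at 9 to 15 (r = 0.996 each). For Nrp2 they were Dach1, a transcription factor of coronary artery growth, and Cacybp (r = 0.999 and 0.998). Dach1, on the log2 scale, fell by 0.58 (SE 0.13; limma, adjusted p = 0.0161), from 296, 279 and 275 to 228, 186 and 160, and without knockout replicate 2 its adjusted p in limma was 0.0592.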
